A study of Mus musculus with 3 samples.

Results

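Major histocompatibility complex (MHC) class II presentation was followed through 10 genes in mouse embryonic fibroblasts in primary culture, the connective tissue cells that grow out of dissected embryos. The genes were chosen by name: H2-Aa, H2-Ab1, H2-Eb1, H2-DMa, H2-DMb1, Cd74, Ciita, Cd86, Cd80 and Ifi30. All probes whose transcript identifier is a RefSeq transcript of these genes were taken, which gave 14 of the 41174 probes of the array. These cover 9 of the 10 genes, since no probe carried a transcript of H2-Eb1. Of the 9, 7 genes could be tested between the channels, among 18488 genes or transcripts tested in all.

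The cultures were untreated, came from E12.5 embryos (days of embryonic development) and were grown in DMEM with 10% serum. Each of 3 Agilent 2-colour arrays held 1 µg of labelled RNA from a culture labelled SA1-null, in the green dye Cy3, and 1 µg from a culture labelled wild type, in the red dye Cy5. SA1, encoded by Stag1, is a subunit of cohesin, a ring complex that keeps sister chromatids paired and extrudes chromatin into loops. The arrays are labelled as biological replicates 1 to 3, and the labels give neither strain, allele nor embryo, so p-values measure the spread between these arrays. No array had the dyes exchanged, so the effects of dye and of genotype cannot be told apart. The study's comparison is SA1-null against wild type, and a ratio below 0 here means a higher signal in the channel labelled wild type (log2 of Cy3 over Cy5). The direction of the deposited log2 values is the opposite one.

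Stag1 itself went against the labels. Its ratio was 3.52 ± 0.21 (SD, n = 3, limma adjusted p = 0.0273), with the channel labelled SA1-null 11.4-fold the brighter. Channels are therefore called by their labels throughout, and every sign turns over if the labels of the channels are exchanged. Replicate 1 was on slide 1 and replicates 2 and 3 were on slide 2, and the ratios of the arrays correlated at 0.37, 0.27 and 0.45 across the 24019 probes kept. In bulk RNA, fewer cells of a type and less RNA per cell cannot be told apart. Of the fibroblast markers, 11 of 11 had signals well above background with both dyes on each of the 3 arrays. So had 16 of 17 macrophage markers with a probe, so this criterion does not single out fibroblasts.

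MHC class II molecules carry peptides of proteins taken up from outside the cell to its surface, where helper T cells read them. Dendritic cells and B cells make them constantly and macrophages can make them, while fibroblasts are known to make them mainly after interferon-gamma. The alpha and beta chains (H2-Aa with H2-Ab1, and H2-Eb1 as a beta chain of the other isotype) assemble with the invariant chain Cd74, which is cut away in endosomes and lysosomes. The H2-DM heterodimer of H2-DMa and H2-DMb1 then exchanges the last piece of Cd74 for other peptides, and the thiol reductase Ifi30 opens disulfide bonds of the antigens. Ciita is the co-activator that switches the class II genes on. Cd80 and Cd86 are the ligands of Cd28 on T cells and give the second signal of T cell activation.

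Ciita does not bind DNA itself but docks on factors bound to the X box (the RFX complex) and the Y box (NF-Y) before class II genes. RefSeq promoter windows of assembly GRCm38.p6, 300 bases each from 250 bases before the start, were at hand for 6 of the 10 genes, with 2 starts for H2-DMa. Both strands were searched for the first letters of the X box, AGNAACNNA, and for a Y box, TGATTGG, whose matches in the stretches shown do not overlap. The motifs were written after the promoters had been read, so their presence in the members is a description. The X box letters were in 5537 of 32851 promoter windows (16.9%) and the Y box in 2568 (7.82%). The X box letters followed on 1 strand by the Y box after 10 to 30 bases were in 14 windows (0.0426%), 5 of class II chains (H2-DMb1, H2-Eb1, H2-Eb2, H2-Oa and H2-Ob) and 9 of other genes. A spelling with TG added to the X box, tried on the same windows, left 4 (0.0122%), those of H2-DMb1, H2-Eb1, H2-Eb2 and H2-Ob. The stretches of the members with a Y box are shown because they carry the sequence that this pathway's regulators read, each 5′ to 3′ on the strand of its gene, with the motifs in capitals, and H2-Eb1 is included although the array has no probe for it.
H2-DMb1, chr17:34153084-34153144, plus strand: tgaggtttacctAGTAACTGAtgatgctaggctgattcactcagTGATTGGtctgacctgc
H2-Eb1, chr17:34305763-34305822, plus strand: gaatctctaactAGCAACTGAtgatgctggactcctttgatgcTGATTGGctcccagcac
H2-Aa, chr17:34287857-34287913, minus strand: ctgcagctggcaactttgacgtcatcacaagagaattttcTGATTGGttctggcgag

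In H2-DMb1 the capitals are 23 bases apart and the Y box starts 63 bases before the gene's start. H2-Eb1 has 22 bases between them and its Y box starts 61 bases before the start. H2-Aa holds the Y box, starting 50 bases before its start, without these letters of the X box. The windows of H2-DMa, Cd80 and Ifi30 hold neither motif in this spelling, which says only that these letters are not there.

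None of the tested members passed the test between the channels, and the members varied in sign and in how well they could be measured. In limma 0 of the 7 tested genes passed an adjusted p of 0.05, beside 0.314% of all genes tested, and 0 of their 10 tested probes did, beside 0.321% of all probes kept. At an unadjusted p of 0.05 there were 2, H2-DMb1 and Cd86, beside 7.49% of all genes. Cd86 entered the test through Cy5 alone, with Cy3 at background on all arrays, which set its sign, so its place in these counts is no support. Among the 6 members above background with both dyes throughout, 1 had an unadjusted p under 0.05, beside 7.5% of the 17083 genes measured as well. Of those 6, 5 lay below 0 and 1 above, 3 of them below 0 on all 3 arrays, beside 18.1% of the same genes, and their median ratio was -0.14. With Cd86, 4 of 7 lay below 0 on all arrays, beside 19.1% of all genes, and the median was -0.15, or -0.28 without replicate 1. All genes had a median of -0.02, and 54.4% of them lay below 0.

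**Figure D1:**
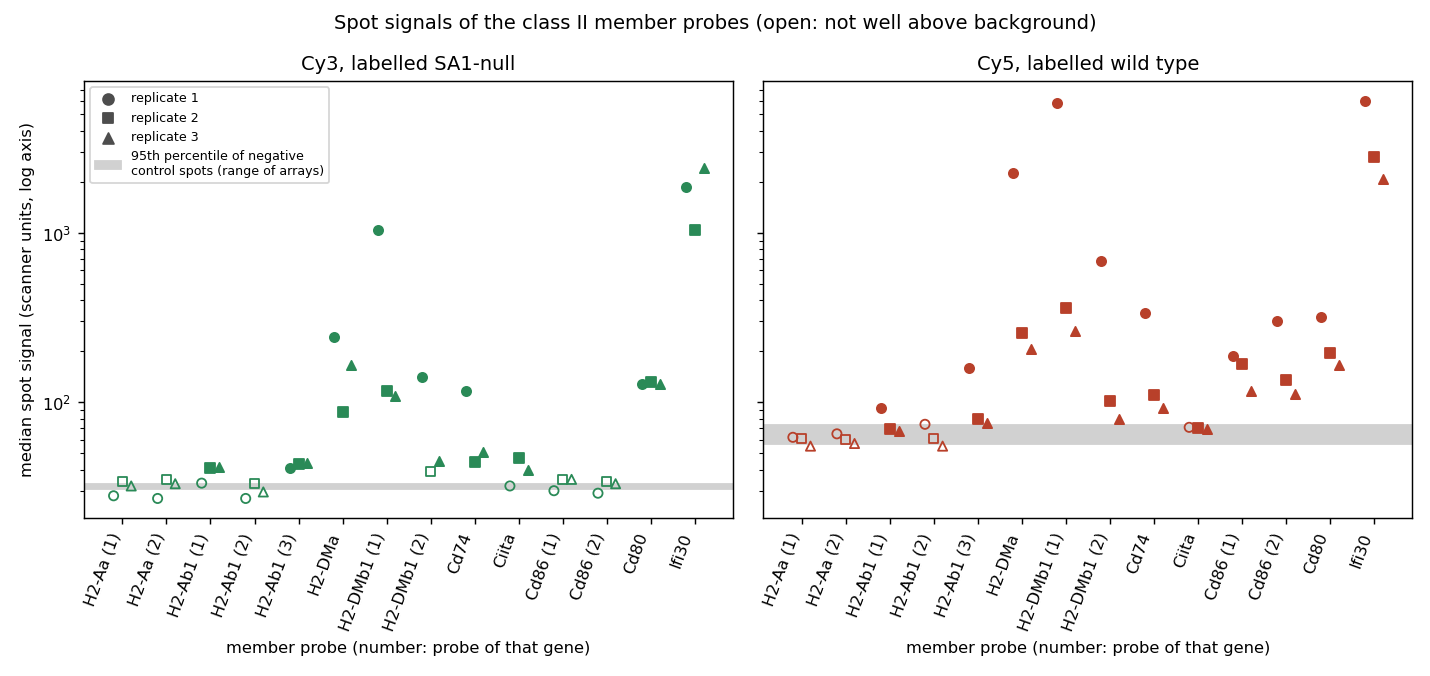
Median spot signal (scanner units, log axis) of each of the 14 member probes in the Cy3 channel (labelled SA1-null, left) and the Cy5 channel (labelled wild type, right), with a symbol per replicate, open where the probe was not well above background. The grey band is the range over arrays of the 95th percentile of negative control spots, and the H2-Aa probes and both Cd86 probes in Cy3 are open symbols on every array.

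The classical alpha chain H2-Aa was not well above background in either channel on any array. Its 2 probes read 28, 34 and 32 and 27, 35 and 33 in Cy3 on replicates 1, 2 and 3. In Cy5 they read 62, 61 and 55 and 65, 60 and 57. The 153 negative control spots of each array, whose probes match no mouse transcript, had medians of 25, 30 and 28.5 in Cy3 and 61, 54 and 51.5 in Cy5, so H2-Aa stood between 1.02 and 1.17 times above them. Its probes exceeded 98.0% to 99.3% of these spots in Cy3 on replicates 2 and 3, and 68.0% and 81.0% on replicate 1. In Cy5 they exceeded 52.3% to 95.4%. H2-Aa has no ratio in the test, since the scanner software did not call it well above background.

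The beta chain H2-Ab1, the partner of H2-Aa, was measured close to background. At its brightest probe, which was well above background with either dye on each of the 3 arrays, the uncorrected Cy3 signals were 41, 43 and 44. The Cy5 signals were 158.5, 80 and 75.5. The normalized ratios were -0.30, -0.05 and -0.02, a mean of -0.12 ± 0.15 (SD, n = 3, limma adjusted p = 0.843). The array of slide 1 was the lowest, and the channels did not differ beyond the spread. A second H2-Ab1 probe is printed in 10 spots on each array, which gives the scatter of single spots within an array. Its spots had an SD of 0.09 (9 spots after an outlier flag), 0.07 and 0.10 on replicates 1, 2 and 3. Its mean over arrays was 0.00 ± 0.07 (SD, n = 3). Cy3 was above background in 0 of the 9 spots on replicate 1, and in 7 and 9 of 10 on replicates 2 and 3. The third H2-Ab1 probe was not well above background in either channel on any array.

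Cd74, the invariant chain, exceeded background on every array with either dye, at low signal. Its Cy3 signals were 116, 44.5 and 51, and its Cy5 signals were 335, 110 and 92. Its ratios were 0.10, -0.25 and -0.31, with a mean of -0.15 ± 0.22 (SD, n = 3, limma adjusted p = 0.822). Replicate 1 lay above 0 and the arrays of slide 2 below it, and the mean was smaller than the spread. The 95% confidence interval of the mean from limma ran from -0.58 to 0.27.

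The H2-DM genes, which edit the peptides that class II chains carry, were brighter in the channel labelled wild type on every array. At the brighter H2-DMb1 probe the Cy3 signals were 1033.5, 117 and 108 and the Cy5 signals 5847, 359 and 262.5. Its normalized ratios were -0.79, -0.60 and -0.90, with a mean of -0.76 ± 0.15 (SD, n = 3, limma adjusted p = 0.285, unadjusted p = 0.00457) and a 95% interval of -1.16 to -0.37. All 3 arrays lay on the same side, by several times the SD, yet the gene did not pass after adjustment over all genes. The second H2-DMb1 probe had Cy3 signals of 140, 39 and 45 and Cy5 signals of 677, 101 and 80, and was above background in Cy3 on 2 of 3 arrays. It gave ratios of -0.59, -0.42 and -0.01, a mean of -0.34 ± 0.30 (SD, n = 3, adjusted p = 0.712 over all probes in limma), nearer to 0. This second probe entered the test through Cy5, which favours a ratio below 0, so its shared sign is no support. H2-DMb1 has a near-identical neighbour, H2-DMb2, whose probe was above background on 0 arrays in Cy3 and 1 in Cy5, and how far the probes of the pair cross-hybridize was not tested.

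H2-DMa, the alpha chain of the same heterodimer, varied more between arrays. Its Cy3 signals were 241, 88 and 165, and its Cy5 signals were 2252.5, 255 and 205. The ratios were -1.48, -0.50 and -0.10, a mean of -0.69 ± 0.71 (SD, n = 3, limma adjusted p = 0.693). Replicate 1 carried most of the difference, and without it the mean was -0.30. The partners of the heterodimer thus had like means with unlike spreads, and the difference between them was not tested.

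Ifi30, the lysosomal reductase, had ratios of 0.03, -0.43 and 0.36 and a mean of -0.01 ± 0.40 (SD, n = 3, limma adjusted p = 0.991). Its signals were 1876, 1031.5 and 2410.5 in Cy3 and 6006, 2801.5 and 2079 in Cy5, far above background on all arrays. The arrays did not share a sign, and the sign of the mean turned with the processing: it was 0.02 from the processed signals of the scanner software, 0.07 from the deposited values and 0.20 without replicate 2. Under median centring it was -0.42, where the median of all genes was -0.30.

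Ciita, the master regulator, was measured at the edge of detection. Its probe had Cy3 signals of 32, 46.5 and 40 and Cy5 signals of 71, 70.5 and 69, well above background on replicates 2 and 3 in both channels and on replicate 1 in neither. It therefore did not enter the test. With no filter on dim probes its ratio was 0.07 ± 0.20 (SD, n = 3, limma adjusted p = 0.907), and that of H2-Aa was 0.05 ± 0.11 (adjusted p = 0.892 in limma).

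**Figure D2:**
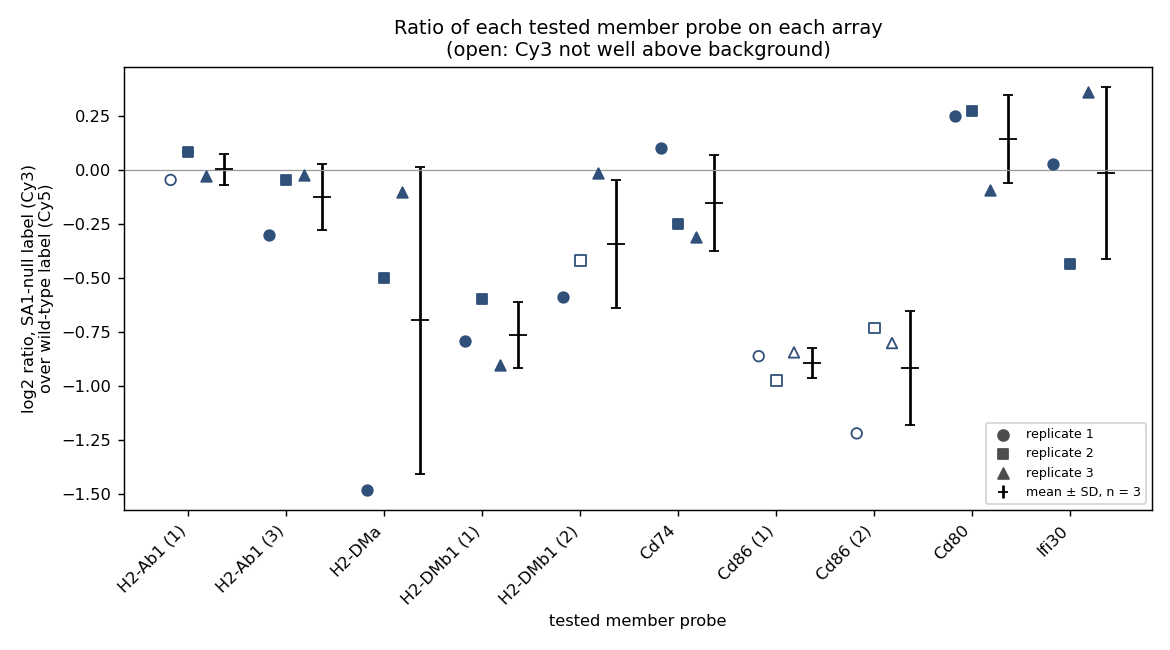
Log2 ratio (Cy3 over Cy5) of the 10 tested member probes on each array, with a symbol per replicate, open where Cy3 was not well above background, and bars for the mean ± SD of 3 arrays. H2-DMb1 and both Cd86 probes lie below 0 on all 3 arrays, H2-DMa reaches from -1.48 to -0.10, and for Cd86 the distance from 0 is a lower bound set by the background handling.

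The co-stimulatory ligands Cd86 and Cd80 gave means of opposite sign, a difference that was not tested. Cd86 was well above background in the channel labelled wild type on 3 of 3 arrays and in the channel labelled SA1-null on 0 of 3. Its brighter probe had Cy3 signals of 29, 34 and 33 against Cy5 signals of 302.5, 135 and 112. Its other probe had Cy3 signals of 30, 35 and 35 against Cy5 signals of 188, 167 and 116.5. The Cy3 signals were 1.13 to 1.23 times the median of the negative control spots, and the Cy5 signals 2.17 to 4.96 times. Since Cy3 gives only a bound, Cd86 was at least 1.89-fold and at least 1.83-fold higher in the channel labelled wild type at its 2 probes, with limma adjusted p of 0.260 in the gene test and 0.184 for the other probe over all probes. These bounds compare the mean normalized log2 signal in Cy5 with, per array, the higher of the probe's own Cy3 signal and the lowest signal of any probe well above background, and are open to dye bias without swapped dyes. Both probes entered the test through Cy5 alone, which set their sign, so the shared sign of the 3 arrays is no support. The size of the bound depended on a constant of 50 that was added to all signals before taking logs. Without it the bounds were at least 4.11-fold and at least 4.15-fold. Cd86 then passed the test (limma adjusted p = 0.0164), which is no support for the same reason.

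Cd80, the other ligand of Cd28, exceeded background clearly on every array with either dye. Its Cy3 signals were 128, 132 and 128, and its Cy5 signals were 320, 195 and 166. The ratios were 0.25, 0.27 and -0.09, with a mean of 0.14 ± 0.20 (SD, n = 3, limma adjusted p = 0.825). Cd80 was thus the 1 tested member with a mean above 0, within its spread, and under median centring in place of loess it was at -0.02, where the median of all genes moved to -0.30.

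**Figure D3:**
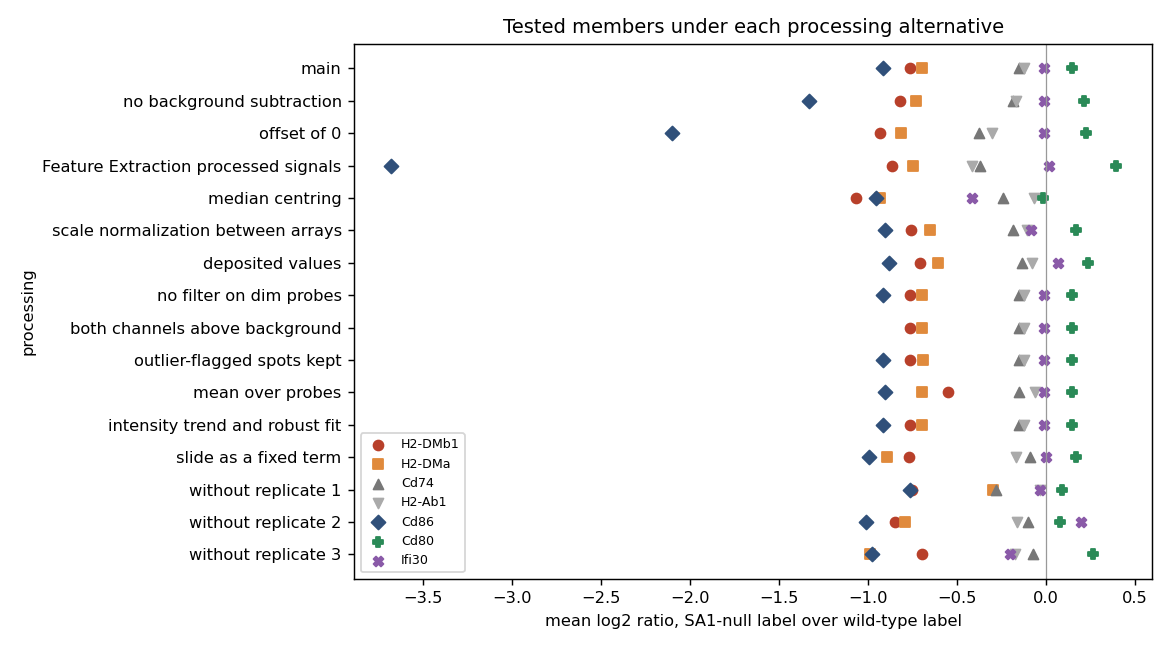
Mean log2 ratio of the 7 tested members (symbols) under the main processing and each alternative (vertical axis). Cd86, whose Cy3 signal was not well above background, moves from -0.92 to -2.10 and -3.68 with the handling of the background and has no value where both channels had to be above background, while H2-DMb1 stays between -1.07 and -0.55.

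The channels were also compared across arrays, as normalized log2 intensities per channel, because H2-DMb1 was much brighter on replicate 1 in both dyes. Its levels were 10.32, 8.0 and 7.39 in Cy3 and 11.11, 8.60 and 8.29 in Cy5 on replicates 1, 2 and 3. Slide 1 thus exceeded the mean of slide 2 by 2.63 in Cy3 and 2.67 in Cy5, and 98.7% and 97.7% of all tested genes had a smaller excess. The distance between the slides was larger than the distance between channels on any array. The slide, the version of the scanner software and the culture changed together here and cannot be told apart.

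H2-DMa was higher on slide 1 by 0.45 in Cy3 and 1.63 in Cy5. Cd74 was higher by 0.83 and 0.44, and the other members with a level stayed 0.52 or less from the slide 2 mean in both channels. For H2-Ab1 the differences were -0.12 and 0.14, for Cd80 -0.36 and -0.52, for Ifi30 0.03 and -0.04 and for Cd86 -0.26, from dim signals, and 0.19. All tested genes had medians of -0.13 and -0.06. With 1 array on slide 1 these differences have no replicate check.

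**Figure D4:**
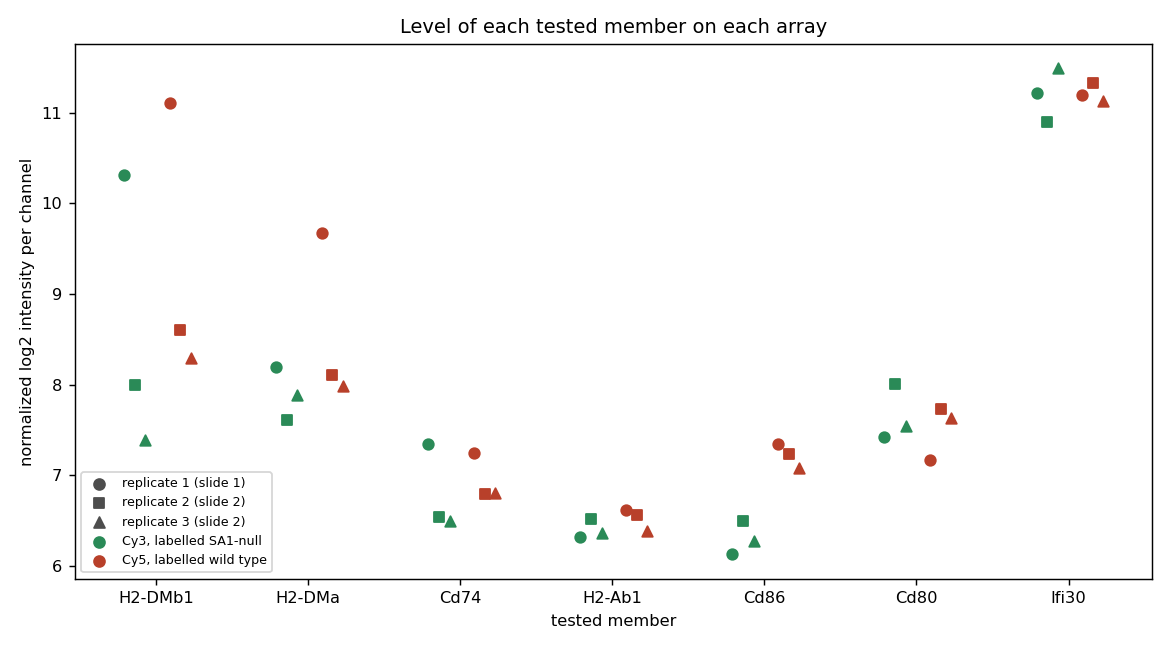
Normalized log2 intensity of the 7 tested members in each channel (green Cy3, labelled SA1-null; red Cy5, labelled wild type) on each array, with a symbol per replicate. H2-DMb1 on replicate 1 stands at 10.32 and 11.11, above 7.39 to 8.60 on replicates 2 and 3, while heights of different genes are of different probes and cannot be set against each other.

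The remaining class II chains were near background too. Of H2-Oa, H2-Ob (the H2-DO heterodimer that restrains H2-DM), H2-Eb2, H2-DMb2 and H2-Ea, 4 had a probe and H2-Oa alone was tested, with ratios of -0.88, -0.15 and -0.22 and a mean of -0.42 ± 0.40 (SD, n = 3, limma adjusted p = 0.703), above background in Cy3 on 2 of 3 arrays. H2-Oa thus entered the test through Cy5, which favours a ratio below 0. H2-Eb2 was above background on no array in either channel, as H2-Aa was. H2-Ob was above background on 0 arrays in Cy3 and on 1 in Cy5.

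Of 9 genes that cut or guard Cd74 and antigens in lysosomes, 1 passed, lower in the channel labelled SA1-null, beside 0.303% of all genes. This was Ctss, the cathepsin that trims Cd74 in antigen-presenting cells, at -4.15 ± 0.73 (SD, n = 3, limma adjusted p = 0.0312). All 9 means lay below 0, beside 54.4% of all genes, with a median of -0.48. Of the 9, 3 were below 0 on all arrays, beside 18.1% of genes above background with both dyes throughout. Ctsb had -2.29, -0.45 and -0.61 on the 3 arrays, Lgmn, which opens the way for the cathepsins, -1.92, -0.34 and -0.14, and Ctsd, an aspartic protease, -2.15, -0.03 and 0.74. Cst3, a cathepsin inhibitor, read -2.32, -0.22 and 0.29. Replicate 1 was the lowest in each of these, and the means of Ctsb, Lgmn, Cst3, Ctsd and Ctsz did not pass (limma adjusted p of 0.656 to 0.837). Second probes lay at -0.31 for Ctsb, -0.33 for Ctsd and -0.24 for Ctsz. Without replicate 2, without replicate 3, under median centring, with the deposited values and with no filter on dim probes, 0 of the 9 passed, and with the slide as a fixed term 5 did.

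Of 15 tested regulators of class II transcription, 0 passed, beside 0.314% of all genes. Of the 15, 9 lay below 0, beside 54.4% of all genes, and 6 above, with a median of -0.06. Among them Spi1 entered through Cy5. Of the 14 above background with both dyes throughout, 8 lay below 0 and 6 above, with a median of -0.04. The subunits of the RFX complex that reads the X box gave -0.58 ± 0.25 for Rfxank, -0.30 ± 0.05 for Rfxap and 0.19 ± 0.30 for Rfx5 (SD, n = 3, limma adjusted p of 0.548 to 0.796). The NF-Y subunits that read the Y box gave 0.00 ± 0.20 for Nfya, -0.02 ± 0.46 for Nfyb and 0.27 ± 0.34 for Nfyc. The interferon-gamma side, through which Ciita is induced in fibroblasts, gave -0.06 ± 0.37 for Irf1 and -0.48 ± 0.58 for the receptor chain Ifngr1. Rfx5, Nfya, Nfyb and Irf1 were named after their values were seen, to complete the complexes. The myeloid factors Irf8 and Spi1 had values farther from 0. Irf8 had -3.45, -2.11 and -2.19, a mean of -2.59 ± 0.75 (SD, n = 3, limma adjusted p = 0.0865), with a second probe at -1.06. Spi1 had -1.69, -0.69 and -0.64, a mean of -1.01 ± 0.59 (limma adjusted p = 0.468), above background in Cy3 on 2 of 3 arrays. Entry through Cy5 favours a ratio below 0, so the sign of Spi1 is no support. How many passed differed with the processing: 1 of the 15 passed without replicate 1, with no background subtraction, with scale normalization, with an intensity trend and robust fit and at a threshold of 0.1, and 2 passed with an offset of 0, with processed signals and with the slide as a fixed term.

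The other co-stimulatory and co-inhibitory ligands had 0 of 7 passing, beside 0.314% of all genes, and a median of -0.62. Of the 7, 6 lay below 0 on all arrays, beside 19.1% of all genes. Among them, 1 (Icam1) was above background in Cy3 on 1 of 3 arrays and entered through Cy5. Of the other 6 tested, 5 lay below 0 on all arrays, beside 18.1% of genes above background with both dyes throughout. Under other processing 1 of the 7 passed without replicate 1, with no background subtraction, with both channels above background, with an intensity trend and robust fit and at a threshold of 0.1, 2 with an offset of 0, and 3 with processed signals and with the slide as a fixed term. Cd48, a ligand of the T and natural killer cell receptor Cd244, had -1.32, -1.55 and -1.46 and came nearest to passing (mean -1.44 ± 0.12, SD, n = 3, limma adjusted p = 0.0579), with a second probe at -0.92 that was above background in Cy3 on 1 of 3 arrays. Cd83, a surface protein of mature dendritic cells, was at -1.31 ± 0.65, Icosl at -1.53 ± 1.17 and the adhesion ligand Icam1 at -0.62 ± 0.03. Cd276, an inhibitory ligand that many non-immune cells carry, was at 0.37 ± 0.53. Class I molecules, which all nucleated cells carry, had 3 of 5 listed genes with a probe, and none of these 3 passed: B2m was at 0.26 ± 0.29, H2-T23 at -0.26 ± 0.23 and H2-Q1 at -0.14 ± 0.09 (SD, n = 3).

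Markers of macrophages, a cell type that can carry class II, differed between the same channels. Of 17 tested, 6 passed, lower in the channel labelled SA1-null, beside 0.303% of all genes, and the median of the 17 was -2.79. Itgam, above background in Cy3 on 1 of 3 arrays, entered through Cy5. The other 16 all lay below 0 on all arrays, beside 18.1% of genes above background with both dyes throughout, and had a median of -2.82. The summed signal over background of the 17 ranged from 2844.25 to 17742.8 in the channel labelled SA1-null. In the channel labelled wild type it ranged from 33382.6 to 564531, and it was highest on replicate 1 in both channels. Tyrobp (-3.15 ± 0.15), Ptprc (-2.92 ± 0.35), Lyz2 (-2.79 ± 0.32) and C1qc (-2.86 ± 0.49) had the smallest p. None of the 17 was at background throughout. How many passed depended on the processing: 0 without replicate 2, without replicate 3 and with no filter on dim probes, 4 under median centring, with the deposited values and with the mean over probes, 11 with scale normalization, with an intensity trend and robust fit and at a threshold of 0.1, 14 with an offset of 0, 15 without replicate 1, 16 with processed signals and 17 with the slide as a fixed term. The excess of slide 1 over slide 2 in the macrophage markers had a median of 1.73 in Cy3 and 2.34 in Cy5, beside 2.63 and 2.67 for H2-DMb1. It was 1.11 and 0.40 in fibroblast markers, 1.13 and 1.39 in class I genes and -0.03 and -0.76 in dendritic cell markers. Among fibroblast markers it ran from -1.38 and 0.42 for Thy1 to 4.98 and 3.19 for Dcn and 7.32 and 3.34 for Lum. A high excess was thus not particular to macrophage markers. The part of these markers' cells in the values of the members was not tested.

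Markers of the other class II carrying cells were measured in part. Of 10 dendritic cell markers, Clec9a, Siglech, Ccr7 and Cd209a were above background on 0 arrays in both channels, while Flt3, Zbtb46, Itgax, Xcr1 and Batf3 were above it in both channels on 3 of 3. Of the 5 tested none passed; Clec10a entered through Cy5 alone, with Cy3 above background on 0 arrays, and the other 4 had a median of -0.30. Flt3 had outlier flags and was not tested. Their summed signal ranged from 229.5 to 388.5 in Cy3 and from 487.5 to 1328 in Cy5. Of 8 B cell markers, Cd79b, Ms4a1, Pax5 and Fcer2a were above background on 0 arrays, and the adaptor Blnk, which macrophages also use, had -2.77 ± 0.85 (SD, n = 3, limma adjusted p = 0.0928). The B cell sums ranged from 263 to 696.5 in Cy3 and from 2487.5 to 9363.5 in Cy5. T cell markers were tested for 3 of 8 genes, with a median of -0.01 and none passing, and endothelial markers for 2 of 6, none passing. These 2 lay on opposite sides of 0, Kdr at -1.14 ± 1.47 and Emcn at 0.81 ± 0.66 (SD, n = 3). Their median of -0.16 thus describes neither gene. Fibroblast markers, 0 of 10 passing beside 0.314% of all genes, had a median of 0.75. They had 9 of 10 means above 0, Col1a1, Prrx1, Pdgfra and Pdgfrb among them, while 54.4% of all genes lay below 0.

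**Figure D5:**
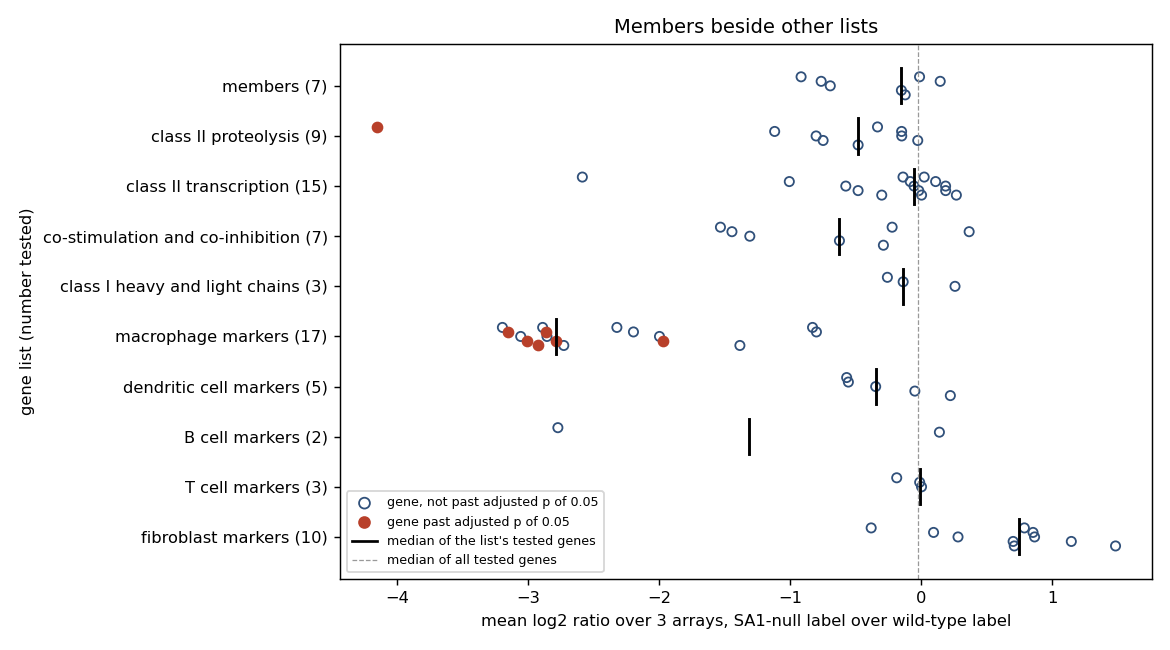
Mean log2 ratio over 3 arrays (horizontal axis, Cy3 over Cy5) of each tested gene by list, with filled points for genes past an adjusted p of 0.05, short bars for list medians and a dashed line for the median of all genes, -0.02. The members spread from -0.92 to 0.14 with a median of -0.15, while macrophage markers have a median of -2.79 and fibroblast markers one of 0.75.

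Likeness of pattern was measured as the Euclidean distance between the ratios of 2 genes over the 3 arrays. The 5 genes with a symbol nearest to Cd74 were Masp1, Parp16, Abt1, Cdkn2c and Olfr1395, at distances of 0.05 to 0.07. Those nearest to Cd86 were Ap1s3, Creg2, Crct1, Itgal and Epsti1, at 0.06 to 0.18. For Cd86 the ratios rest on a dim channel.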

How the data were processed

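The scanner files of the 3 arrays hold median spot and background intensity values per dye, made by the authors with Agilent Feature Extraction 10.1.1.1 (replicate 1) and 10.7.3.1 (replicates 2 and 3), per the file headers. Per the file headers, the log ratio they hold is a log10 value, Cy5 to Cy3, of processed signals. The deposited log2 values were made by the authors with limma, per the submitters' processing notes. Against the ratios computed here they correlated at -0.985, -0.982 and -0.997 with slopes of -0.96, -1.03 and -1.00, which gives their direction and log2 scale; how they were centred stays unknown. Their medians were -0.02, -0.02 and -0.01.

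Here background was corrected with normexp (constant of 50 added), then loess was run array by array (R 4.3.3, limma 3.58.1). Control spots had weight 0, as had 116, 125 and 207 spots with outlier flags, which were then left out. Spots flagged as saturated numbered 0 on each array. Kept were 24019 probes well above background in 1 and the same channel on all 3 arrays (60.6% to 67.0% of probes per array and dye). The brightest probe stood for each gene. Transcripts were named through RefSeq of assembly GRCm38.p6 (23374 probes matched). Ratios were tested against 0 with lmFit and eBayes, adjusted by Benjamini-Hochberg over all genes or all probes at 0.05, after a test on simulated data. Levels per channel came after Aquantile normalization. Precision is limited by the 3 arrays.

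The members and gene lists were chosen with earlier results of these data known. Named were the members, Stag1, the up to 6 members of each pathway list and up to 4 of each marker list with the smallest p, and the 5 nearest genes to Cd74 and Cd86. Figures were drawn with matplotlib 3.10.9.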

Additional observations from a re-analysis of the deposited data

How the results depend on the processing

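Among 16 alternatives, chosen with earlier results of these data known, 0 of the 7 members passed in 12. With an offset of 0, with the processed signals of Feature Extraction and with an intensity trend and robust fit 1 member, Cd86, and 2 member probes passed; with the slide as a fixed term, whose spread comes from the 2 arrays of slide 2, 3 members (Cd86, H2-DMa, H2-DMb1) and 4 probes did. Requiring both channels above background left out Cd86. Cd86 had entered the test through Cy5 alone, which set its sign, so its passing is no support. The members' median was -0.38 with an offset of 0, -0.42 with processed signals, -0.42 under median centring and -0.28 to -0.16 with 1 replicate left out. The count of all genes called was 118 with no background subtraction, 265 with an offset of 0, 326 with processed signals, 34 under median centring, 158 with scale normalization, 0 with no filter, 92 with both channels above background, 142 with trend and robust fit, 1772 with the slide term, 132 at a threshold of 0.1, and 0 to 284 when 1 replicate was left out. Ifi30 reversed to 0.016 with processed signals, 0.068 with deposited values and 0.20 without replicate 2 (range -0.20 to 0.20 with 1 replicate left out). Cd80 reversed to -0.016 under median centring. The H2-Ab1 probe of 10 spots turned to -0.0030 with an offset of 0, -0.0085 with the slide term and -0.037 without replicate 2 (range -0.037 to 0.028 with 1 replicate left out). The cause was not tested. Cd74, H2-Ab1 at its brightest probe, H2-DMa and H2-DMb1 kept their sign in all 16. Cy3 signal near background limits H2-Aa, Ciita, H2-Ab1 and Cd86. Each array's ratio pairs its channels, so the test of the ratios against 0 is already a paired analysis, with 1 group of ratios.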
